A study of Mus musculus with 31 samples.

Results

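Female mouse germ cells at E13.5 had peaks of the Polycomb mark H3K27me3 at 236 autosomal regions where male germ cells at E13.5 had little or no length in peaks. The genome (build mm9) was cut into 10-kb bins, and a peak list was taken to hold a bin when at least 1 kb of it lay in merged peaks. A bin was chosen when 2 or more of the 3 female lists held it and each of the 3 male lists had under 1 kb there. Of 247207 bins on the 19 autosomes, 276 were chosen (0.112%), and they merged into 236 regions. They made up 30.4% of the 907 bins that 2 or more female lists held. The sex of the germ cells comes from the labels, which say female and male and name no organ. Because H3K27me3 in the female and male lists chose these bins, the female and male values are a description and carry no test.

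H3K27me3 is laid down on histone H3 by Polycomb complexes, mostly at the promoters and gene bodies of silent developmental regulators. Primordial germ cells, the precursors of eggs and sperm, lose most of their DNA methylation in the days around these stages. After the gonads take on a sex, female germ cells enter meiosis in the embryo, whereas male germ cells stop dividing and wait until after birth. H3K9me3, the second mark mapped here, belongs to heterochromatin and repeats and is known mostly from other parts of the genome.

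The groups were E13.5 female cells, E13.5 male cells and E10.5 cells, each with 3 libraries of H3K27me3 and 3 of H3K9me3 by ultra-low-input native ChIP-seq. All were wild type primordial germ cells of the background C57BL/6 x GOF18delta_PE-EGFP, sorted by flow cytometry, with 1000 cells per ChIP. The E10.5 cells were pooled over embryos and have no sex in the labels, so a comparison of either E13.5 sex with E10.5 mixes sex with stage. Nothing in the labels ties replicates to different animals or litters, so the spread between libraries may be technical. The lists give intervals and not read counts, so depth is unknown and no gene expression could be used to check the cell identity.

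List length differed widely and bears on every count here. Female H3K27me3 lists held 2629, 7839 and 6813 peaks (replicates 1, 2 and 3) and 1.51, 5.05 and 3.998 Mb of the autosomes. Male lists held 3522, 359 and 5333 peaks and 2.46, 0.155 and 3.98 Mb. E10.5 lists held 11330, 1703 and 23141 peaks and 19.5, 2.07 and 34.7 Mb. Male replicate 2 and E10.5 replicate 2 were the shortest of their groups. Without male replicate 2 the choice gave the same 276 bins, because the other 2 male lists decided it.

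The female lists did not contribute equally. Replicates 1, 2 and 3 held 99, 261 and 237 of the 276 bins, where they held 0.193%, 0.664% and 0.505% of all autosomal bins. All 3 female lists held 45 bins. The pair of replicates 2 and 3 alone held 177, the pair of 1 and 2 held 39 and the pair of 1 and 3 held 15. Female replicate 1, the shortest female list, thus holds fewer of the bins than either other list. The number of regions was 57 without female replicate 2, 78 without female replicate 3 and 406 without male replicate 3. Peak length in the 276 bins was 199.8, 553 and 446 kb in the female lists, which is 13.2%, 11.0% and 11.1% of each list's autosomal length. In male lists it was 50.2, 3.80 and 86.6 kb, which is 2.04%, 2.46% and 2.18%.

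The male lists were low in these bins but often not empty. In 92 of the 276 bins (33.3%) all 3 male lists had 0 bp. In the other 184 the highest male list had a median of 599.5 bp in peaks. Of the 236 regions, 67 had no male peak at all. Near the limit, 43 chosen bins had a highest male list within 200 bp below 1 kb, and 43 bins of 2 or more female lists were passed over with a male list less than 200 bp above it. The highest male value inside was 997 bp and the lowest outside was 1006 bp. On the female side, 80 chosen bins had a second-highest female list less than 200 bp above 1 kb, and 120 bins within 200 bp below it were passed over. The second-highest female value had a median of 1356 bp and ran up to 5750 bp.

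**Figure D1:**
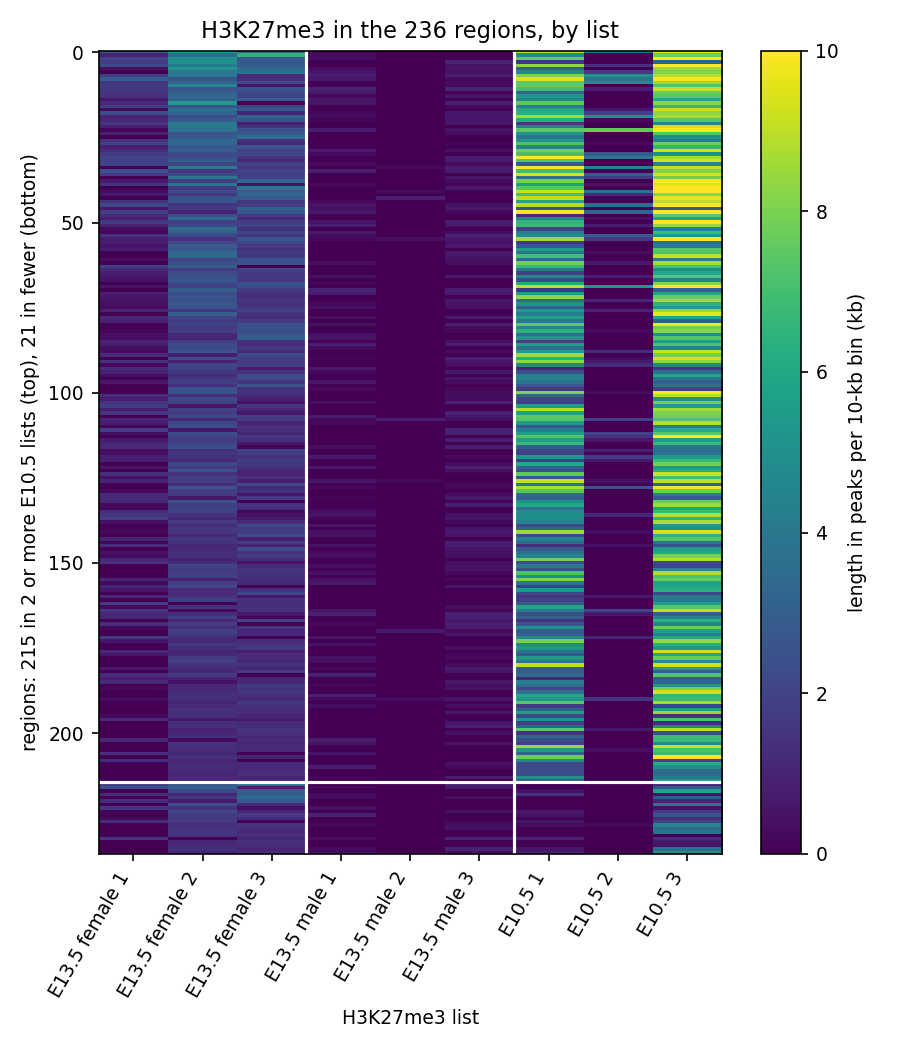
H3K27me3 in each of the 236 regions (rows) in the 9 lists (columns), as kb in peaks per 10-kb bin, with the 215 regions of 2 or more E10.5 lists above the white line and the other 21 below it, each block sorted by mean female length. Averaged over the bins of a region, female lists show low values of up to 6.48 kb per bin and male lists stay under 1 kb. E10.5 replicates 1 and 3 reach 10 kb. E10.5 replicate 2 is at 0 in 156 of the 215 upper regions and 20 of the 21 lower ones, and reaches 7.58 kb per bin.

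Most regions were short and lay apart. A single bin made up 205 of the 236 regions, 25 spanned 20 kb, 5 spanned 30 kb and 1 spanned 60 kb. That longest region lay on chromosome 17 from 48020001 to 48080000. It held 11.3, 15.6 and 12.6 kb in female lists, 0, 0 and 1.79 kb in male lists, and 25.5, 0.612 and 39.4 kb in E10.5 lists. Every female list was above every male list there, which the choice favours, and 2 of the 3 E10.5 lists were above every female list. On chromosome 19 from 46490001 to 46520000 the lengths were 3.49, 8.64 and 7.42 kb in female lists, 0.51, 0 and 1.98 kb in male lists and 18.7, 0.758 and 21.99 kb in E10.5 lists. Both regions had length in all 3 female lists, and the highest male list at each was replicate 3.

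Other long regions had little or no male length. Chromosome 14 from 27810001 to 27840000 held 2.53, 8.07 and 4.44 kb in female lists, 0 kb in all male lists and 16.9, 0 and 22.2 kb in E10.5 lists. A second 30-kb region on that chromosome, from 49310001 to 49340000, held 4.37, 7.75 and 4.71 kb in female lists, 0.718, 0 and 0 kb in male lists and 17.8, 0 and 26.6 kb in E10.5 lists. In both, E10.5 replicate 2 had no peak although replicates 1 and 3 had more than any female list. Chromosome 18 from 66560001 to 66590000 held 0.346, 7.23 and 4.02 kb in female lists, 0 kb in male lists and 8.28, 0 and 12.5 kb in E10.5 lists. Chromosome 19 from 44700001 to 44730000 had 0, 3.78 and 4.59 kb in female lists, 0 kb in male lists and 11.0, 0 and 28.0 kb in E10.5 lists. Female replicate 1 had under 1 kb at these last 2 places, so they rest on female replicates 2 and 3.

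Among the 67 regions at 0 bp in all male lists, the highest female lengths after chromosome 14 from 27810001 were at 5 further places. Chromosome 15 from 100470001 to 100490000 averaged 4.15 ± 2.11 kb in female lists, and chromosome 14 from 49280001 to 49290000 averaged 3.98 ± 1.39 kb (SD, n = 3 each). Chromosome 3 from 128910001 to 128930000 held 3.60, 4.63 and 3.52 kb in female lists, 0 kb in male lists and 18.8, 6.09 and 18.8 kb in E10.5 lists. All E10.5 lists there, the short replicate 2 included, were above all female lists. The chromosome 18 region above averaged 3.87 ± 3.45 kb and chromosome 19 from 23130001 to 23150000 averaged 3.22 ± 1.44 kb in female lists (SD, n = 3 each). In 2 of these 6 regions, on chromosome 3 and on chromosome 14 from 49280001, all 3 E10.5 lists held the mark, with 9.03, 4.14 and 9.40 kb in E10.5 lists at the chromosome 14 region.

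Regions also came in groups along a chromosome. Of the 236 regions, 65 lay less than 100 kb from another one, in 27 groups. The same count was not made for other female-held bins, so it describes the chosen regions only. Directly beside a bin of 2 or more female lists lay 44.9% of the chosen bins. The share was 64.3% for the 631 other bins of 2 or more female lists and 0.657% for all autosomal bins. The group with the most regions, 5 within 90 kb on chromosome 2 from 71420001 to 71510000, held 3.86, 7.18 and 5.34 kb in female lists, 2.09, 0 and 1.61 kb in male lists and 15.3, 0 and 33.1 kb in E10.5 lists. On chromosome 4 from 115550001 to 115630000, 4 regions held 0, 7.87 and 10.1 kb in female lists, 0, 0.843 and 0.98 kb in male lists and 31.7, 0.291 and 38.3 kb in E10.5 lists. Female replicate 1 had no peak in that group. On chromosome 14 from 49280001 to 49370000, 3 regions held 7.30, 15.2 and 9.502 kb in female lists, 0.718, 0 and 0 kb in male lists and 31.6, 4.14 and 43.2 kb in E10.5 lists. On chromosome 18 from 66560001 to 66680000, 3 regions held 3.28, 12.3 and 4.68 kb in female lists, 0 kb in male lists and 21.7, 0 and 26.4 kb in E10.5 lists. In each of these 4 groups, E10.5 replicates 1 and 3 were above every female list. Not all 27 groups were so. On chromosome 11 from 69240001 to 69300000, female lists had 3.19, 3.78 and 6.86 kb and E10.5 lists 1.54, 0 and 1.48 kb. On chromosome 10 from 115000001 to 115060000, E10.5 replicate 1 had 3.14 kb, below female replicates 2 and 3 (3.75 and 3.32 kb).

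By rule the chosen bins are part of the bins that 2 or more female lists held. Their spread over the chromosomes follows in part from that. Chromosome 5 held 30 of the 276 bins, chromosome 4 held 28 and chromosome 2 held 24, while chromosome 16 held 2. Of the bins held by 2 or more female lists, 53.3% on chromosome 14 (16 of 30), 42.9% on chromosome 18 (15 of 35) and 41.4% on chromosome 3 (12 of 29) were chosen, against 16.0% on chromosome 6 (12 of 75). The share over all autosomes was 30.4%. These shares rest on few bins each, and neighbouring bins are not independent.

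**Figure D2:**
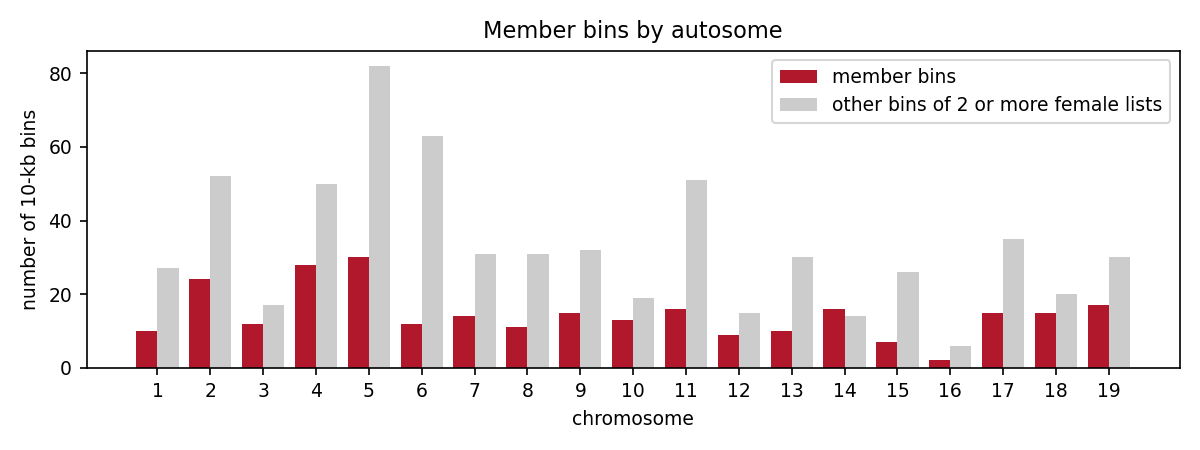
Number of chosen bins (red) on each autosome, beside the other bins held by 2 or more female lists (grey). Chromosome 5 has the most chosen bins, 30, and chromosome 16 the fewest, 2, and on chromosome 14 the 16 chosen bins outnumber the others.

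Lists that took no part in the choice give the one look at whether the sex difference recurs. Each of the 3 female lists was left out together with each of the 3 male lists, bins were chosen as held by both other female lists and under 1 kb in both other male lists, and the chosen bins were then looked up in the 2 lists left out. Left-out female replicates 1, 2 and 3 held 20.3 to 25.3%, 75.0 to 81.6% and 53.6 to 64.2% of the bins chosen without them. Left-out male replicates 1 and 3 held 23.7 to 27.7% and 44.9 to 52.0%, and male replicate 2 held 0%. All but male replicate 2 stand far above the shares of all autosomal bins that those lists held, which were 0.193%, 0.664% and 0.505% for the female lists, 0.321% and 0.508% for male replicates 1 and 3, and 0.00688% for male replicate 2.

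The female share was the higher in 7 of the 9 pairs, 3 of which used male replicate 2 and say little. The left-out female lists held a mean of 53.1% and the left-out male lists 24.6%, a difference of 28.5 points over the 9 pairs. It was 18.01 points over the 6 pairs without a look-up in male replicate 2, 42.9 points without those in female replicate 1 and 16.95 points without those in female replicate 2. With the longest lists of each sex left out, the 125 bins chosen were held at 81.6% by female replicate 2 and at 52.0% by male replicate 3. Lists of nearly the same length, female replicate 3 and male replicate 3, held 64.2% and 47.2% of 159 bins. With female replicate 1 left out the order was even or turned round, at 22.3% for female replicate 1 against 23.7% for male replicate 1 (291 bins) and 25.3% against 44.9% for male replicate 3 (403 bins). For comparison, where only the female condition was set, left-out male replicate 1 held 48.9 to 61.9% and left-out male replicate 3 held 63.2 to 74.9% of the bins of both other female lists. Left-out female replicates 1, 2 and 3 held 37.6%, 89.7% and 78.2% of such bins. Without the male condition the shares were thus higher in the lists of both sexes. Female replicate 3 and male replicate 3 then held 78.2% and 70.3%. Bins of a list are not replicates, so these shares carry no p. A sizeable part of the bins chosen without a male list was held by that list, so under 1 kb in 3 male lists does not show that the mark is missing from male cells.

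**Figure D3:**
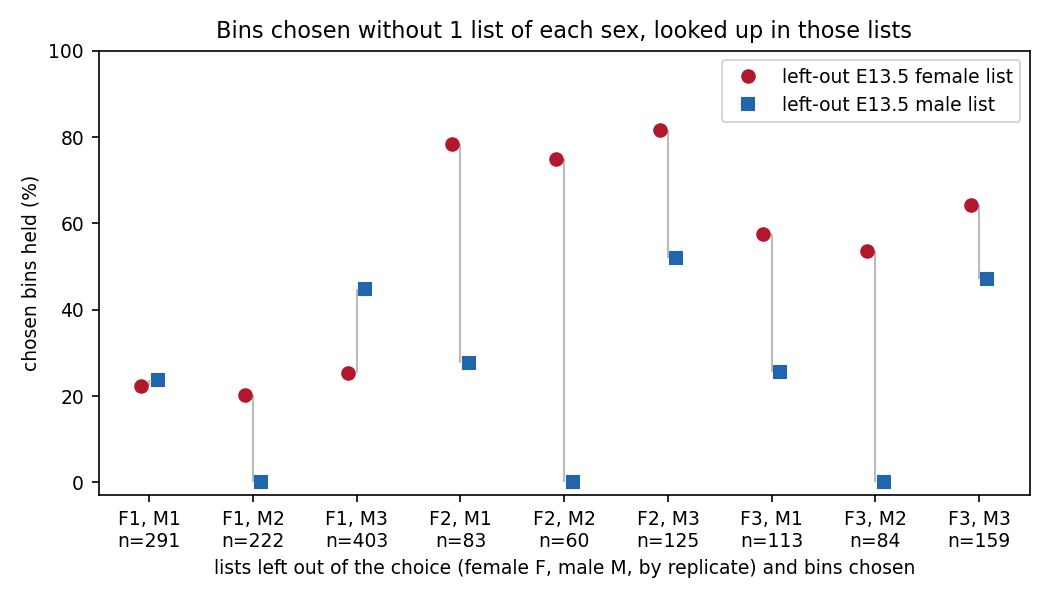
Share of bins (%) held by the left-out E13.5 female list (red circles) and the left-out E13.5 male list (blue squares), for bins chosen without them, with the number of bins under each pair. Female replicates 2 and 3 hold 53.6 to 81.6% and lie above the male list in each pair, while female replicate 1 (20.3 to 25.3%) lies below male replicates 1 and 3.

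Nearly all of these regions already carried H3K27me3 at E10.5, by the 2 long E10.5 lists. Of the 236 regions, 215 (91.1%) were present in 2 or more E10.5 lists, that is with at least 1 bin held. Of these, 36 were in all 3 lists and 179 in 2, while 16 regions were in 1 list and 5 in none. By bins, 247 of 276 (89.5%) were held by 2 or more E10.5 lists, against 1.93% of all autosomal bins. E10.5 replicates 1, 2 and 3 held 248, 37 and 269 of the 276 bins (89.9%, 13.4% and 97.5%), where they held 2.04%, 0.263% and 3.41% of all autosomal bins. Without E10.5 replicate 1 or replicate 3, the regions in both remaining lists dropped to 15.3%, so the 91.1% rests on those 2 lists together. With the 1703 top-ranked peaks of each E10.5 list, 25.7%, 13.4% and 31.5% of the bins were held, and 17.8% by 2 or more lists.

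Bins marked in both sexes had higher shares than the chosen bins in each of the 3 E10.5 lists. Of the 343 bins held by 2 or more female and 2 or more male lists, the E10.5 lists held 97.7%, 56.9% and 99.1%. The mean share over the 3 E10.5 lists was 66.9 ± 46.5% in the chosen bins and 84.5 ± 24.0% in bins of both sexes (SD, n = 3 lists). It was lower in the chosen bins in 3 of 3 lists, a mean difference of -17.6 points. E10.5 replicate 2, the shortest E10.5 list, had the lowest share in both sets. An exact two-sided permutation test by sign flips over the 3 lists gave p = 0.25, the smallest that 3 lists allow (0.5 adjusted over 2 tests). With that floor the test, which was added after seeing the data, cannot decide the question. The rule itself set these bins apart, since one set needed 2 or more male lists and the other under 1 kb in each. How far that alone gives the order was not tested. With 1703 top-ranked peaks in each list, the shares in bins of both sexes were 67.1%, 56.9% and 82.5%.

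The mirrored rule, 2 or more male lists and under 1 kb in each female list, chose 77 bins (0.0311% of all autosomal bins and 14.6% of those of 2 or more male lists). E10.5 lists held 72.7%, 23.4% and 81.8% of them. Against these, the E10.5 share of the female-held bins was higher in replicates 1 and 3 and lower in replicate 2, a mean difference of 7.60 points (exact two-sided permutation p = 0.5, and 0.5 adjusted). The numbers 276 and 77 cannot be compared as a sex difference, since the male lists include one of 0.155 Mb and the rule asks for 2 of 3 lists.

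**Figure D4:**
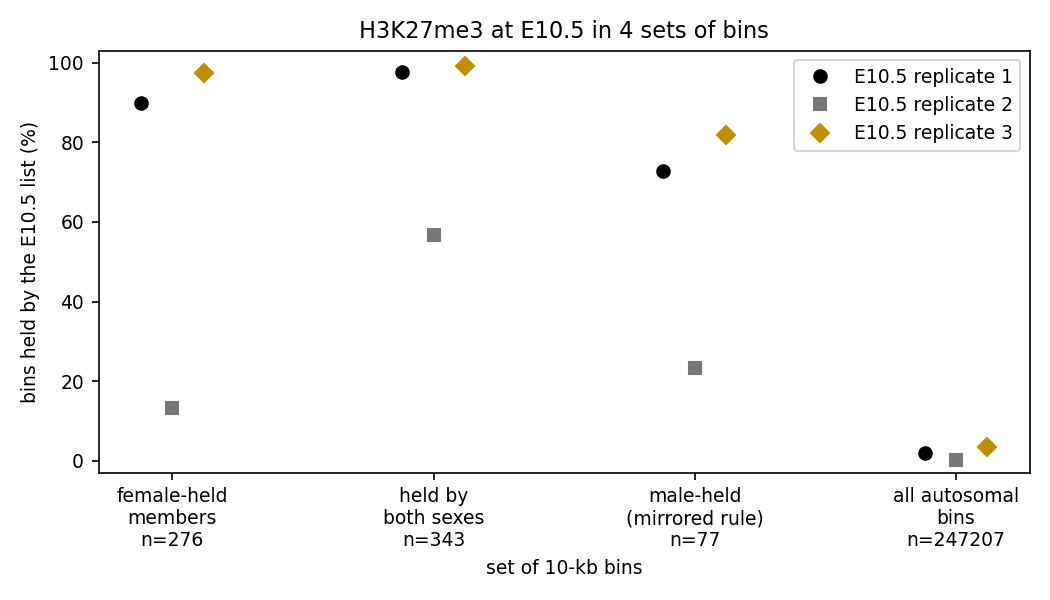
Share of 10-kb bins (%) held by each of the 3 E10.5 H3K27me3 lists, for the 276 female-held bins, the 343 bins of both sexes, the 77 bins of the mirrored rule and all 247207 autosomal bins. E10.5 replicates 1 and 3 hold 89.9% and 97.5% of the female-held bins and replicate 2 holds 13.4%, and each list holds more of the bins of both sexes.

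Female lists had less length in these bins than the 2 long E10.5 lists and more than the short one. In the 276 bins, E10.5 replicates 1 and 3 had 1243 and 1758 kb in peaks, 45.0% and 63.7% of the bins' length, and replicate 2 had 115 kb (4.18%). Peak length in female lists was 0.161, 0.445 and 0.358 times that of E10.5 replicate 1 and 0.114, 0.315 and 0.254 times that of E10.5 replicate 3. Against the short E10.5 replicate 2 it was 1.73, 4.79 and 3.86 times as much, so the direction depends on which E10.5 list is used. Male lists had 0.0404, 0.00306 and 0.0697 times the length of E10.5 replicate 1. These ratios set lists of unequal length side by side and are descriptions of the lists.

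Most of the female length lay within peaks of E10.5 replicates 1 and 3. Of the female length in the 276 bins, 73.9%, 64.7% and 65.1% lay inside peaks of E10.5 replicate 1, which covered 45.0% of the bins. Peaks of E10.5 replicate 3, over 63.7% of the bins, held 89.8%, 85.6% and 83.3% of it. What male length there was lay likewise inside, at 71.6%, 93.2% and 67.6% for E10.5 replicate 1. The female share inside E10.5 peaks was thus above the share of the bins that those peaks covered, in all 6 pairs of a female list with E10.5 replicate 1 or 3.

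Around the centres of the regions, E10.5 replicates 1 and 3 formed a wide dome. Within 5 kb of the centre, 44.9% and 63.4% of the sequence lay in peaks of E10.5 replicates 1 and 3, and from 40 to 60 kb 9.40% and 15.5% did. From 5 to 20 kb the share was 29.1 and 25.96 times that of all autosomes, which was 0.789% and 1.41%. Female lists had 7.34%, 19.95% and 16.4% within 5 kb, a level that the choice raised, and 2.40%, 8.42% and 5.79% from 5 to 20 kb. Male lists had 2.01%, 0.161% and 3.34% within 5 kb, a level that the choice held down, and 2.56%, 0.0650% and 3.91% from 5 to 20 kb. In male replicates 1 and 3 the surroundings were thus marked slightly more than the centres, at 25.7 and 24.3 times the autosomal average.

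Bins beside the regions were held as follows. Of the 236 regions, 83 (35.2%) had a bin directly beside them that 1 or more male lists held, 57 (24.2%) had one that 2 or more female lists held, and 169 (71.6%) had one that 2 or more E10.5 lists held. A neighbouring bin of 2 or more female lists must also be held by a male list, or it would have been chosen too. These 57 regions thus adjoin a bin that lists of both sexes held. Counted by bins, 30.1% of the 276 chosen bins lay beside a bin of 1 or more male lists, against 73.5% of the 631 other bins of 2 or more female lists and 1.11% of all autosomal bins. Beside a bin of 2 or more E10.5 lists lay 77.2% of the chosen bins, 88.7% of the other female bins and 3.37% of all autosomal bins. The male shares thus lay below those beside other female-held bins and above the genome's, with no test. Each of the 631 other bins was itself held by 1 or more male lists, or it would have been chosen. The choice thus bears on this order, which is a description only.

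**Figure D5:**
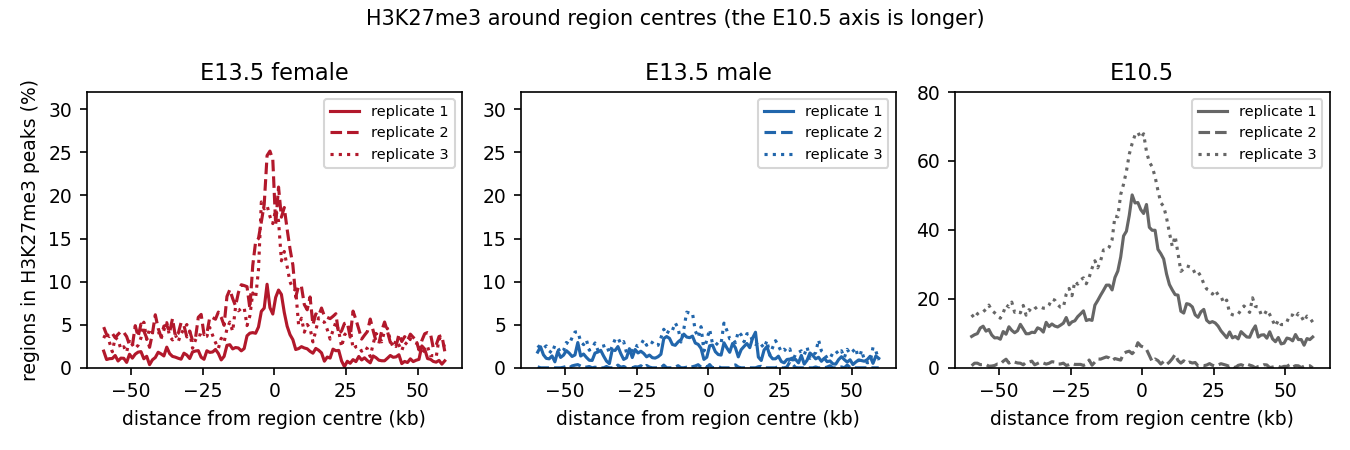
Share of the 236 regions (%) in H3K27me3 peaks by distance from the region centre in kb, in 1-kb steps, for each list of E13.5 female, E13.5 male and E10.5 cells, with a longer vertical axis for E10.5. Female lists peak at the centre and male replicates 1 and 3 do not, both of which the choice imposed. Male replicate 2 is low throughout, at 0.161% within 5 kb and 0.0650% from 5 to 20 kb. E10.5 replicates 1 and 3 form a wide dome of 44.9% and 63.4% within 5 kb.

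Female peaks in these bins ranked near the middle of their lists by the authors' score, which is of unknown scale and is used here to rank peaks within a list. Female peaks there had median score ranks at percentile 45.8, 55.6 and 52.1 of their lists, against 57.2, 63.9 and 64.5 for peaks in bins of both sexes. Their median widths were 701, 674.5 and 662 bp, and the widest female peak spanned 6101 bp. Female peaks had median widths of 434, 511 and 472 bp over all autosomal bins and 631.5, 795 and 743 bp in bins of both sexes. The choice asked for at least 1 kb in peaks per bin, which bears on these widths. E10.5 peaks in the same bins had median ranks at percentile 57.8, 42.5 and 72.1 and median widths of 1679, 1149 and 1817 bp. In bins of both sexes E10.5 peaks ranked at 84.6, 51.9 and 95.1 and had median widths of 3853, 1247 and 3773 bp. The female-held bins thus carried narrower and lower-ranked E10.5 peaks than bins of both sexes in each of the 3 E10.5 lists, with no test of the difference.

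The 21 regions not kept from E10.5 were all of 1 bin. Female lists had medians of 0, 1.48 and 1.27 kb there, male lists 0 kb each, and E10.5 lists 0, 0 and 1.91 kb. In E10.5 replicate 3, 20 of the 21 had some peak, and in replicate 2, 1 had. The highest female mean was on chromosome 11 from 69240001 to 69250000, with 1.87, 2.75 and 3.94 kb in female lists, 0, 0 and 0.763 kb in male lists and 0, 0 and 1.02 kb in E10.5 lists. Near it, chromosome 11 from 69290001 to 69300000 held 1.33, 1.03 and 2.92 kb in female lists, 0.339, 0 and 0 kb in male lists and 1.54, 0 and 0.462 kb in E10.5 lists. All 3 female lists were above all male lists at both, and all 3 were above each E10.5 list at the first. The choice, the split by E10.5 and the naming by female length favour this order, which is a description only.

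The other named regions that were not kept leaned on fewer lists. Chromosome 9 from 40450001 to 40460000 held 2.54, 3.05 and 0.873 kb in female lists, 0.242, 0 and 0.704 kb in male lists and 0.089, 0 and 2.81 kb in E10.5 lists. Chromosome 6 from 128220001 to 128230000 held 0, 2.26 and 3.02 kb in female lists, 0 kb in male lists and 0.462, 0 and 5.76 kb in E10.5 lists. On chromosome 2 from 157080001 to 157090000 female lists had 0, 1.64 and 3.54 kb, male lists 0.301, 0 and 0.376 kb and E10.5 lists 0, 0 and 2.73 kb. At both of these places E10.5 replicate 3 was at about the level of the female lists or above it, and they count as not kept because replicates 1 and 2 had under 1 kb. Chromosome 18 from 61200001 to 61210000 held 1.33, 0.738 and 2.72 kb in female lists, 0 kb in male lists and 0, 0 and 0.984 kb in E10.5 lists. One region, on chromosome 18 from 80140001 to 80150000, had no peak in any male or E10.5 list, with 0, 1.37 and 1.34 kb in female lists; it is named because it stood alone in this respect, after its values were seen.

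H3K9me3, which had no part in the choice, lay in at most 4 of the 276 bins in any list. None of the bins had an H3K9me3 peak of any length in female replicates 1, 2 and 3, where 3.06%, 5.07% and 1.95% of all autosomal bins had one. In male replicates 1, 2 and 3, 4, 3 and 3 bins had one (1.45%, 1.09% and 1.09%), where 14.4%, 11.3% and 8.33% of all autosomal bins did. In E10.5 replicates 1, 2 and 3, 0, 4 and 0 bins had one (1.45% in replicate 2), where 1.04%, 8.45% and 0.330% of all autosomal bins did. The shares of all bins in E10.5 replicates 1 and 3 are so low that a count of 0 among 276 says little there. At 1 kb or more, 1 of the 276 bins was held, by male replicate 1. At that length female replicates 1, 2 and 3 held 0.498%, 1.23% and 0.307% of all autosomal bins, male replicates 8.67%, 5.79% and 3.21%, and E10.5 replicates 0.217%, 4.82% and 0.0231%. The bin that reached 1 kb, on chromosome 4 from 115590001 to 115600000, had 1031, 934 and 257 bp in male lists and 0 bp in female and E10.5 lists. It lies in the group of 4 regions on chromosome 4 described above. Chromosome 18 from 66670001 to 66680000 was the other bin marked in all 3 male lists, with 485, 379 and 336 bp.

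Of a library's autosomal H3K9me3 length, 0% lay in the 276 bins in female lists, 0.00332 ± 0.00056% in male lists and 0.00147 ± 0.00255% in E10.5 lists (SD, n = 3 each), where the bins are 0.112% of all autosomal bins. Female H3K9me3 lists covered 4.83, 9.75 and 3.29 Mb of the autosomes and male lists 74.0, 43.4 and 23.5 Mb. A short list can more easily have 0 bp in these bins. The difference of female from male lists was -0.00332 points, lower in 3 of 3 female lists, with an exact two-sided permutation p of 0.1, the smallest that 3 against 3 lists allow (0.3 adjusted over 3 tests). It was 0 points with only H3K9me3 peaks that score at least 20 and -0.000281 points in the 45 bins of all 3 female lists (exact permutation p = 1 for both), so the order is lost or rests on very little length there. As the share of bins held over the share of all bins, female minus male was -0.0139, which rests on the 1 bin that male replicate 1 held. Female against E10.5 gave -0.00147 points (exact permutation p = 1, adjusted 1) and male against E10.5 gave 0.00184 points (exact permutation p = 0.4, adjusted 0.6). Without E10.5 replicate 2, the only E10.5 list with H3K9me3 here, these became 0 and 0.00332 points (exact permutation p = 1 and 0.1). Bins that 2 or more female lists held but that were not chosen had H3K9me3 in 9, 9 and 7 of 631 in female lists (1.43%, 1.43% and 1.11%), 18, 10 and 12 in male lists (2.85%, 1.58% and 1.90%) and 4, 22 and 8 in E10.5 lists. The bins of the mirrored rule had none in female or E10.5 lists and 2, 1 and 0 of 77 in male lists.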

How the data were processed

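The authors deposited 1 list of broad peaks per ChIP library, 18 in all, each called against an input that the peak names give. MACS2 2.1.0, deepTools 3.3.0, BWA 0.7.5a and CASAVA 1.8.4 appear in the submitters' processing notes beside SAMtools and Picard, without their roles, as does the build mm9. Peak thresholds were not stated in the labels. The score of each peak is the authors' own deposited value, of unknown scale, used only to rank or filter peaks within a list. For H3K27me3 E10.5 replicate 3 the named control is an H3K9me3 input. The 13 input samples were not used here.

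Overlapping or touching peaks were merged per list, and length in peaks was summed per 10-kb bin from position 0 to the last peak end of each autosome (2472 Mb in all), with Python 3.11.15, numpy 2.4.6 and pandas 2.3.3. The computation recovered every planted bin on simulated data. The members, the lists and the tests were chosen with earlier results of these data known. By a set rule the text names the 6 longest regions among those kept from E10.5 and among those not kept, ties going to the higher mean female length, and the 6 regions with the most female length among those with no male peak. The reference annotation at hand is of GRCm38 and the peaks are in mm9, so genes and sequences were not analysed here. Group values of H3K9me3 were compared by exact permutation tests over libraries. The E10.5 shares of different sets of bins were compared by exact sign flips over the 3 E10.5 lists. The tests of the E10.5 shares against other sets of bins, and the percent of female bins that were chosen as a measure beside the counts, were added after seeing the data. Alternatives covered the minimum length, bin size and start, the lists needed, peak score, each list left out and the replicate number.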

Additional observations from a re-analysis of the deposited data

How the results depend on the processing

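The numbers of regions and bins moved by more than 1.5 times with most of the rule's settings. Against 236 regions and 276 bins, there were 451 regions (504 bins) with a minimum of 500 bp, 104 regions with 2000 bp, 42 (45 bins) where all 3 female lists had to hold the bin and 79 (92 bins) with 0 bp in each male list. There were 156 (179 bins) with peaks at or above their list's median score, 65 (69 bins) with a score of at least 20 and 83 (90 bins) when every list kept its 1703 best-ranked peaks. Bins of 5 kb or 20 kb, or shifted by 5 kb, gave 213 to 259 regions. Leaving out 1 female or male list gave 57 to 406 regions (60 to 483 bins), with 57 without female replicate 2, 78 without female replicate 3 and 406 without male replicate 3. The chosen bins as a share of the female bins, a measure added after seeing the data, moved as the number of bins did where only the male condition changed. From 30.4% it became 15.2% with all 3 female lists, 10.1% with 0 bp in each male list, 29.1 to 42.5% in the other settings that keep all lists, and 18.1 to 53.3% with 1 list left out. The share of regions kept from E10.5 ran from 15.3 to 93.5%, and that of bins from 13.4 to 91.7%, with 1 list left out, and the lowest value of each came when either E10.5 replicate 1 or 3 was the list left out. The share of bins was 17.8% with as many best-ranked peaks in each E10.5 list, and with all lists so limited 48.2% of the regions were kept. The cause of these shifts was not tested. The mean difference between left-out female and male lists, 28.5 points, was 16.9 to 34.6 points with other bins, minimum lengths or peak filters. Over the 6 pairs that do not look up one of the lists, an alternative added after seeing the data, it was 16.95 (female replicate 2) to 42.9 points (female replicate 1), and 18.01 points for male replicate 2.

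For H3K9me3, male minus E10.5 was -0.000567 points with a score of at least 20 (0.00184 with all peaks; exact permutation p = 1, and 0.1 to 1 over the alternatives), and the cause was not tested. Female minus male was 0 points with a score of at least 20 and -0.000281 points in bins of all 3 female lists, against -0.00332 points (exact permutation p = 1 for both, and 0.1 to 1 over the alternatives). No H3K9me3 difference passed 0.05 under any setting, which 3 against 3 libraries cannot do (smallest p 0.1). With the replicate block (same-numbered libraries paired), the exact permutation p-values were 0.25 for female minus male (-0.00332 points), 1 for female minus E10.5 (-0.00147 points) and 0.5 for male minus E10.5 (0.00184 points), where 0.25 is the smallest that 3 pairs allow. The H3K9me3 deviations of same-numbered libraries correlated weakly, at -0.0574 to 0.103. Those of H3K27me3 ran from -0.214 to 0.206 and were above 0 for replicate 3 in each comparison (0.145, 0.147 and 0.206). Depth is unknown, so an empty bin in a short list, male replicate 2 above all, says little.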
